A study of Mus musculus with 14 samples.

Results

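Heme synthesis was followed here through 9 genes, Alas2, Slc25a38, Glrx5, Alad, Uros, Urod, Cpox, Ppox and Fech, of the 21887 protein-coding genes in the RefSeq table. Each gene was taken with 5 kb on either side on the mouse build GRCm38, and every peak with its summit in that window was assigned to it. The cells were G1ER cells, a mouse erythroblast line without GATA1 of its own, in which a fusion of GATA1 to the estrogen receptor ligand-binding domain can be switched on by estradiol. The KO cells were Chd7 knockout G1ER cells, without the chromatin remodeler CHD7, and the WT cells were G1ER cells with intact Chd7. Both genotypes were grown with erythropoietin and stem cell factor. Chromatin immunoprecipitation followed by sequencing had been done in KO and WT cells with antibodies to GATA2, to RUNX1 and to the elongating form of RNA polymerase II, marked by phosphate on serine 2 (S2P). The 14 samples were 8 immunoprecipitated samples and 6 inputs, and the immunoprecipitated samples gave 6 peak lists. For GATA2 and RUNX1 a list rests on 1 library per genotype, and each S2P list was named for 2 replicates whose combination is not given in the sources used here. The labels do not say which input belongs to which list, whether the ChIP cells had received estradiol, or whether the KO cells were a single clone.

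Heme is built from glycine and succinyl-CoA in a pathway that begins in mitochondria, passes through the cytosol and ends in mitochondria, where ferrous iron is inserted into protoporphyrin. Maturing red cells make it in bulk for hemoglobin, through an erythroid form of the first enzyme, and erythroid GATA factors are known to bind several of the genes. GATA2 acts in progenitors and gives way to GATA1 as erythroid cells mature, and RUNX1 is a factor of stem and progenitor cells and megakaryocytes.

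The KO lists held 80611 GATA2 and 35281 RUNX1 peaks, and the WT lists 68199 and 28952. Values are given as fragments, the whole number of DNA fragments stacked at a peak's summit, which ended at a ceiling of 282 in the KO lists and 286 in the WT lists. A log2 KO over WT is the ratio of these fragments after division by the lowest local background of each list, 1.57 in KO and 1.48 in WT for GATA2 and 1.39 in KO and 1.37 in WT for RUNX1. With 1 library on each side there was no replicate check, and the intervals of fragments and log2 values cover counting error only. They take no account of the ceiling, and for the tallest summits the upper limit lies above it. S2P peaks covered 10 of 12 erythroid marker genes in KO and 10 of 12 in WT, with Slc4a1 and Hbb-b1 at 0 in both, against 1 of 4 mast cell, 1 of 3 megakaryocyte and 2 of 4 myeloid markers and 0 of 4 lymphoid and 0 of 4 non-blood markers in each genotype. The mast cell marker covered was Cpa3, at 39.8% of its length in KO and 54.5% in WT. The myeloid markers covered were Cd68, at 100% in KO and 87.0% in WT, and Csf1r, at 10.9% in KO and 11.6% in WT. The megakaryocyte marker covered was Itga2b, at 33.4% in KO and 30.6% in WT. The part of these other cell types in the results was not tested.

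Promoters are shown first, because the genes differed in whether a factor's summit lay at the start site and whether the factor's motif lay there too. Each is the RefSeq GRCm38.p6 sequence of 300 bases, from 250 before the start to 50 after it, written 5′ to 3′ on the strand of the gene. Capitals mark AGATAA or TGATAA, searched as the GATA motif, and TGTGGT or TGCGGT, searched as the RUNX motif, on either strand, so TTATCT or TTATCA is a GATA motif and ACCACA a RUNX motif on the opposite strand. The Uros second start and Cpox carry GATA motifs near a GATA2 summit, Alas2 carries it without a peak, Glrx5 has the strongest RUNX1 summit without the motif letters, and Urod has the RUNX motif farther upstream than its RUNX1 summit.
Uros, second start site (chr7:133702451-133702750, - strand): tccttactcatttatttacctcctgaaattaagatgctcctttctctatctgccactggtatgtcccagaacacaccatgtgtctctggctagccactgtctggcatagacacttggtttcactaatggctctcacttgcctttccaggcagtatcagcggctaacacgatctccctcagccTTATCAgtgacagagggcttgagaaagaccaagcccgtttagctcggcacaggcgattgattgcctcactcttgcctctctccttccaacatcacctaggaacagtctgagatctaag
Cpox (chr16:58669958-58670257, + strand): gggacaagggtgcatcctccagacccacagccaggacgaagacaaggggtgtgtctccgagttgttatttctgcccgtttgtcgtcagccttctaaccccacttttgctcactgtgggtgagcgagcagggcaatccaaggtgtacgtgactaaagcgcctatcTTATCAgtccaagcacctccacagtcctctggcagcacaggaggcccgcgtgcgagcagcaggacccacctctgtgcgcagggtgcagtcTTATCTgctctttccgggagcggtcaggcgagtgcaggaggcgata
Alas2 (chrX:150547167-150547466, + strand): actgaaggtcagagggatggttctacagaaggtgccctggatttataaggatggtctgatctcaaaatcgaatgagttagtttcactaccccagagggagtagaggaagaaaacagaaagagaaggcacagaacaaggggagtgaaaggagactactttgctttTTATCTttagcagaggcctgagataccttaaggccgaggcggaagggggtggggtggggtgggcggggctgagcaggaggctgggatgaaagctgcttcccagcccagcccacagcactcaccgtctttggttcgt
Glrx5 (chr12:105032368-105032667, + strand): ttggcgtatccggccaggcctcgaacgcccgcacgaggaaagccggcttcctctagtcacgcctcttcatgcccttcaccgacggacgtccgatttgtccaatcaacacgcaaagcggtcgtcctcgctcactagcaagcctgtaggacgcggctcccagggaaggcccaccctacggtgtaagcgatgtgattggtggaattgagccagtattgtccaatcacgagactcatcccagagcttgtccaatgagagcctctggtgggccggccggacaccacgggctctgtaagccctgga
Urod (chr4:116994364-116994663, - strand): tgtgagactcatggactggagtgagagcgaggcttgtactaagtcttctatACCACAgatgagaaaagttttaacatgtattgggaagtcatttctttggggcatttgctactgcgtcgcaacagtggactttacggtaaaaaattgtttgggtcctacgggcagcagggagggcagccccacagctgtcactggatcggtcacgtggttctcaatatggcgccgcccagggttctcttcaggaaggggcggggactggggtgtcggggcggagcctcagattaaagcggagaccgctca

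Of all 21263 promoters of coding genes in the table, 15.9% held a GATA motif, 2.77% held at least 2 and 21.6% held a RUNX motif. Of the members, 8 matched the table, with 10 start sites in all. Among these, GATA motifs lay only at Alas2, the Uros second start and Cpox. A GATA2 peak of each genotype also overlapped the Ppox promoter, which held no GATA motif. RUNX1 peaks of both genotypes overlapped every one of these promoters except that of Alas2, while Urod alone held a RUNX motif. In the Uros sequence the motif TTATCA ran from −68 to −63 counted from the start, and the GATA2 summit lay at −73 in KO and −74 in WT. In Cpox the motifs ran from −86 to −81 and from 4 to 9, on either side of summits at −49 in KO and −26 in WT. The Alas2 motif ran from −86 to −81, and no GATA2 or RUNX1 peak of either genotype overlapped that promoter. The Urod RUNX motif ran from −199 to −194, while the RUNX1 summit lay at −50 in KO and −68 in WT. A match is a description of the letters, not of a binding site.

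**Figure D1:**
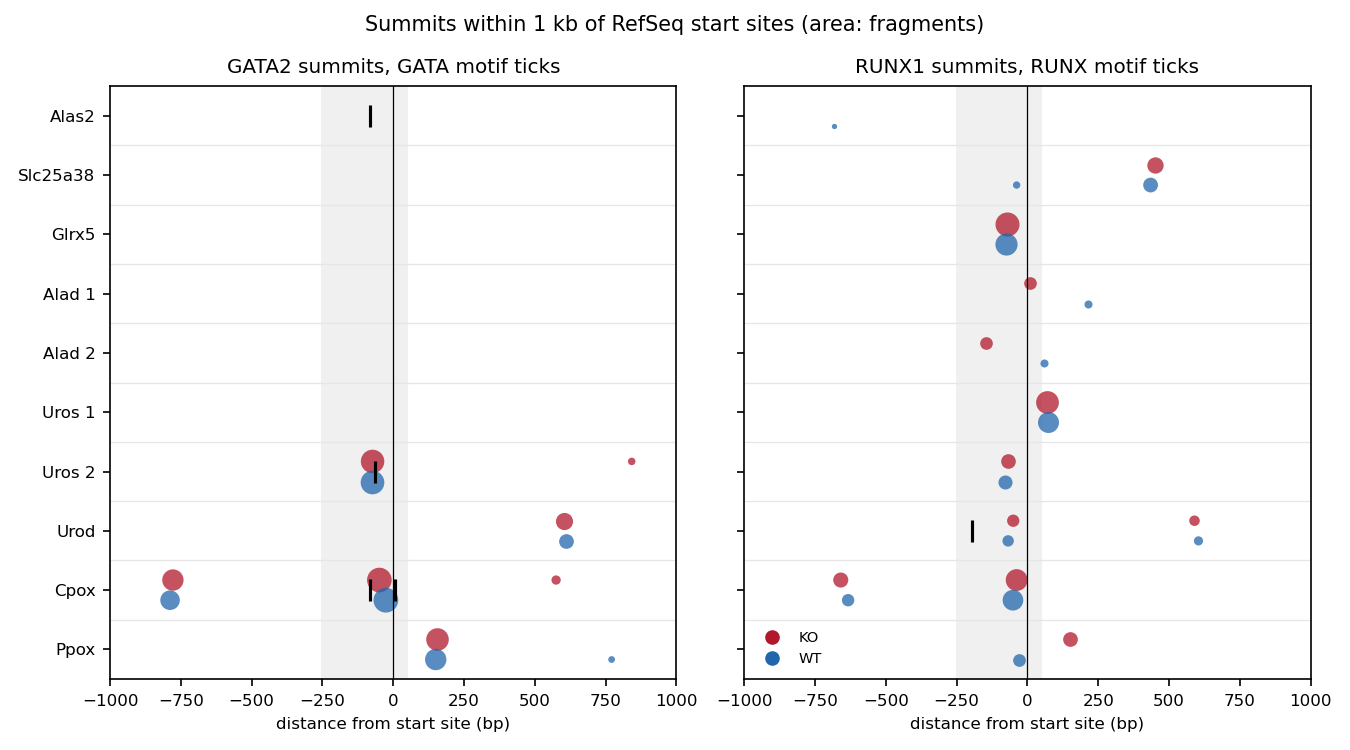
Summits within 1 kb of the 10 RefSeq start sites, GATA2 on the left and RUNX1 on the right, with distance from the start in bp on the x axis, KO circles (red) above WT circles (blue) and circle area in proportion to fragments. The shaded band is the 300-base promoter and black ticks mark motifs. GATA2 circles lie beside the motif tick at the Uros second start and between the 2 ticks at Cpox, whereas the Alas2 tick has no circle, and the large RUNX1 circles at Glrx5 and the Uros first start have no GATA2 partner.

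All 9 heme genes had GATA2 and RUNX1 peaks in both genotypes. Over all coding genes, 61.0% had a GATA2 peak in KO and 56.6% in WT, and 52.7% had a RUNX1 peak in KO and 50.1% in WT. Among the 9986 genes of at least 2 kb with S2P coverage, which resemble the heme genes in being transcribed, the shares were 87.4% in KO and 82.8% in WT for GATA2 and 90.8% in KO and 86.4% in WT for RUNX1. Presence of a peak therefore separated the heme genes little from other transcribed genes. GATA2 summits at the heme genes were tall. A GATA2 summit of at least 200 fragments stood at 8 of the 9 genes in KO, where all genes gave 8.10% and S2P-covered genes 14.8%, and at 7 of 9 in WT, where all genes gave 6.48% and S2P-covered genes 11.8%. For RUNX1 the counts were 3 of 9 in KO, against 3.53% of all genes and 6.63% of S2P-covered genes, and 2 of 9 in WT, against 1.83% of all genes and 3.59% of S2P-covered genes. The median strongest GATA2 summit of a heme gene held 267 fragments in KO and 257 in WT, while that of all genes with a peak held 48 in KO and 44 in WT. The median strongest RUNX1 summit held 162 fragments in KO and 130 in WT, while that of all genes with a peak held 79 in KO and 67 in WT. The heme genes were not longer than others, with a median of 14.1 kb against 17.2 kb over all coding genes.

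**Figure D2:**
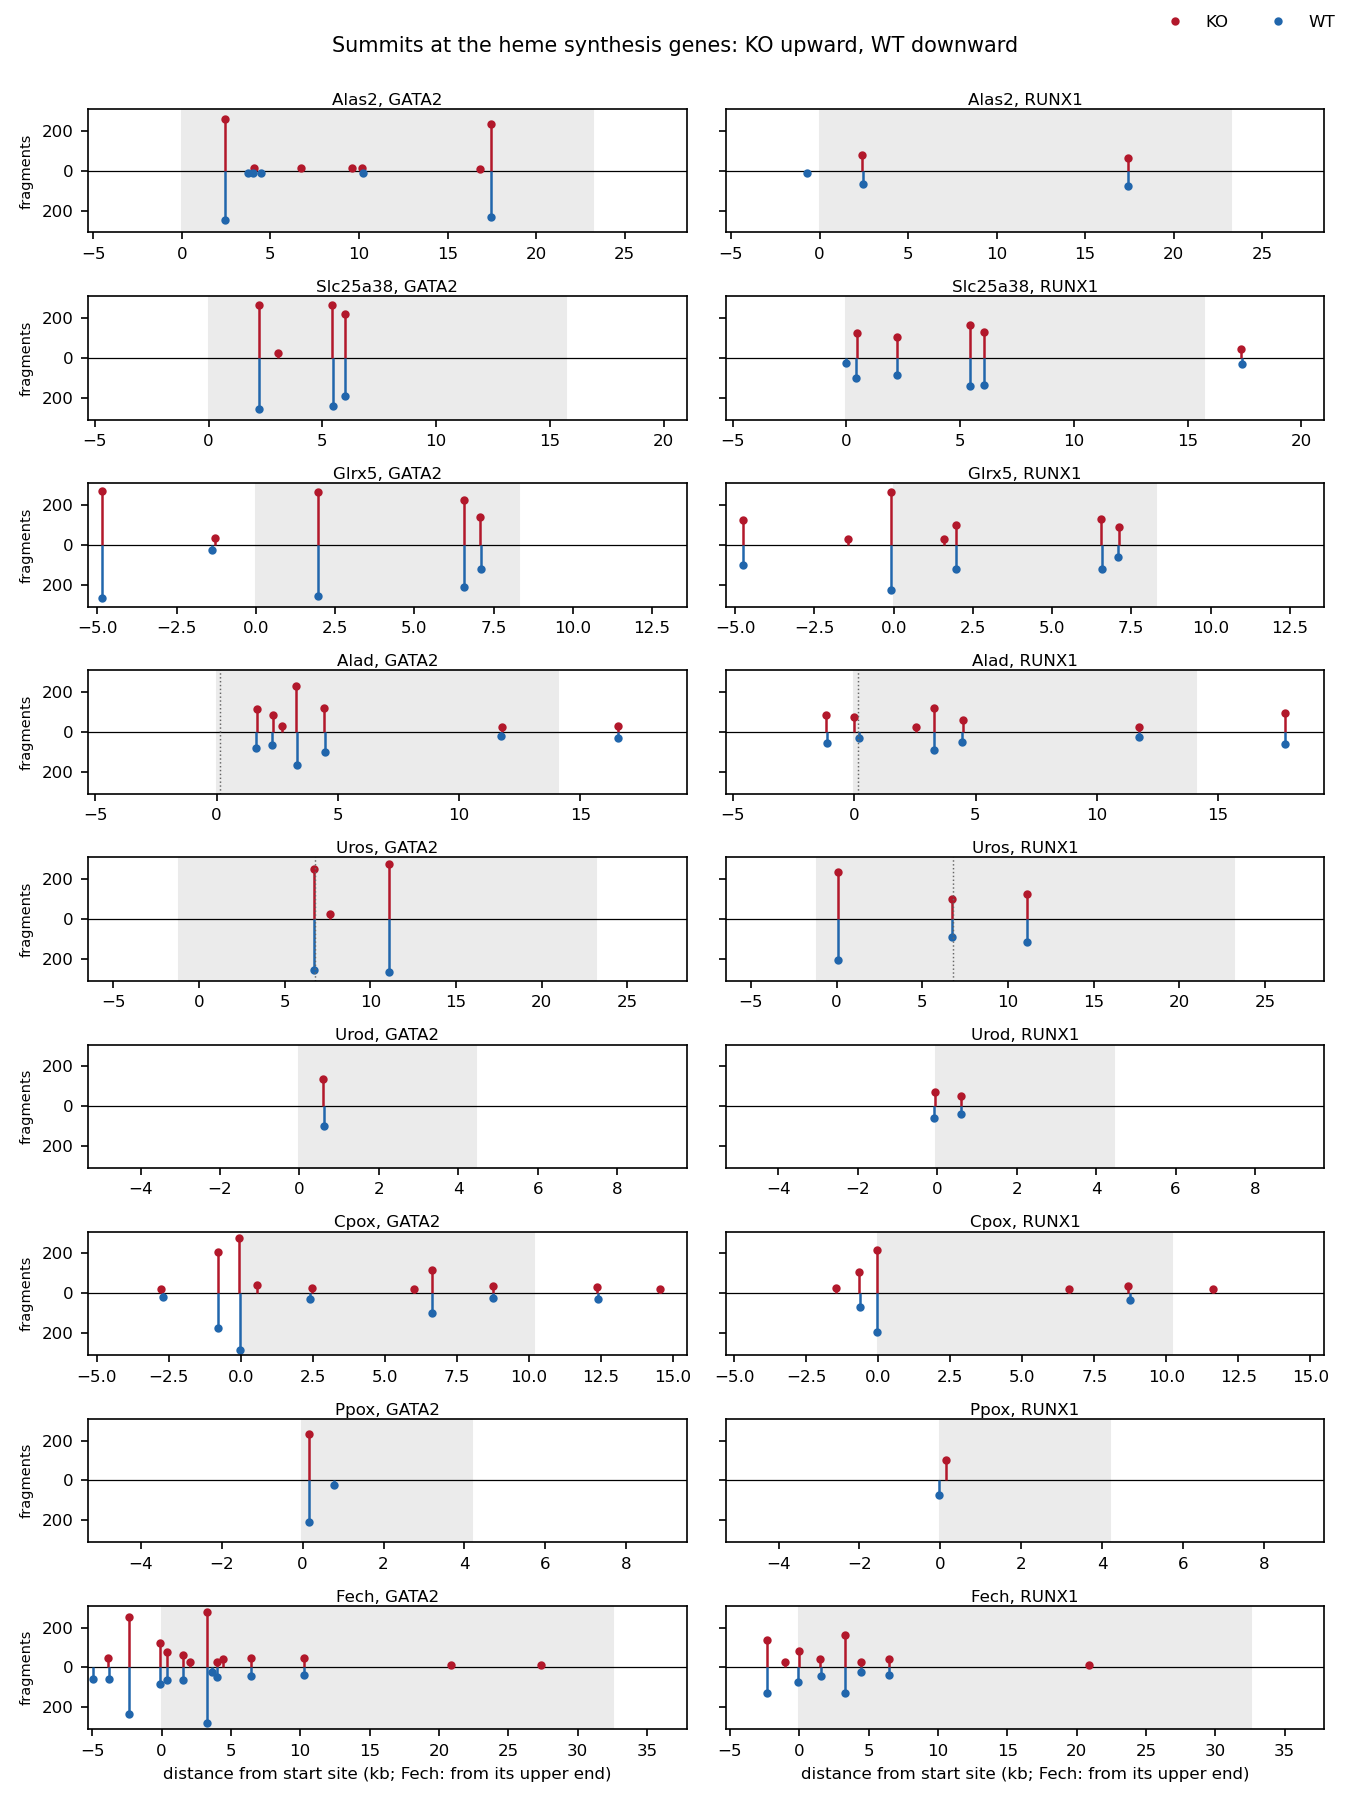
Every GATA2 summit (left) and RUNX1 summit (right) at the 9 genes, with distance from the RefSeq start in kb on the x axis (for Fech, from the upper end of the gene) and fragments on the y axis, KO (red) drawn upward and WT (blue) downward. Grey marks the gene and dotted lines a second start. The tall sticks are of similar height in KO and WT at nearly every gene. At 14 of the 35 shared GATA2 summits the ceiling kept a KO value 1.5-fold higher from being recorded. Similar height there says little about a gain. Peaks called in a single genotype are short, at most 40 fragments.

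The windows held 51 GATA2 peaks in KO and 43 in WT, a ratio of 1.19, the same as over all coding genes, where 53750 in KO and 45344 in WT also gave 1.19. They held 41 RUNX1 peaks in KO and 35 in WT, a ratio of 1.17, against 1.24 over all coding genes. The peak number was thus higher in KO to a similar degree as across the lists. Of the GATA2 peaks, 31 of 51 in KO (60.8%, exact Clopper-Pearson 95% interval 46.1% to 74.2%) and 26 of 43 in WT (60.5%, 44.4% to 75.02%) overlapped a RUNX1 peak, against 24.3% in KO and 23.7% in WT over all coding genes. All 16 KO and all 13 WT GATA2 peaks of at least 200 fragments overlapped a RUNX1 peak, and 99.4% in KO and 99.5% in WT of such peaks did so over all coding genes. Of the GATA2 peaks under 200 fragments, 15 of 35 in KO (42.9%, 26.3% to 60.6%) and 13 of 30 in WT (43.3%, 25.5% to 62.6%) overlapped a RUNX1 peak, against 21.2% in KO and 20.9% in WT over all coding genes. At the heme genes 31.4% of GATA2 peaks in KO and 30.2% in WT reached 200 fragments, against 3.97% in KO and 3.64% in WT over all coding genes.

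Alas2, the erythroid form of the enzyme that commits glycine to heme, had no GATA2 peak at its start but a pair of strong ones inside the gene. At 2.43 kb from the start the GATA2 summit held 263 fragments in KO (exact Poisson 95% interval 232 to 297) and 249 in WT (219 to 282), a log2 KO over WT of −0.01. The WT summit here was too tall for a KO value 1.5-fold higher to be recorded, so a gain of that size could not be read. This summit was among the top 0.114% of the KO list and 0.0249% of the WT list by deposited significance. At 17.4 kb the GATA2 summit held 233 fragments in KO and 231 in WT. RUNX1 summits lay at both places and were lower, with 82 in KO and 67 in WT at the first and 67 in KO and 75 in WT at the second. The local background at the first site was 4.35 fragments in KO and 2.32 in WT, so the deposited fold enrichment, 49.3 in KO and 75.4 in WT, differed more than the fragments did. The other GATA2 peaks of Alas2 held 8 to 14 fragments. Those called in KO alone lay at 6711, 9593 and 16855 bp, and those called in WT alone at 3710 and 4471 bp. A RUNX1 peak of 13 fragments, 683 bp before the start, was called in WT alone.

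Slc25a38, the mitochondrial carrier that brings glycine to the first enzyme, had 3 strong GATA2 sites inside the gene. The summits held 264 fragments in KO and 257 in WT at 2201 bp, 267 in KO and 244 in WT at 5.44 kb, and 222 in KO and 192 in WT at 6.01 kb. RUNX1 summits coincided with all 3, the strongest at 5.44 kb with 163 fragments in KO and 141 in WT. Near the start, RUNX1 stood without GATA2, with 123 fragments in KO at 450 bp and 101 in WT at 435 bp, and a WT summit of 25 fragments lay 38 bp before the start. A GATA2 peak of 25 fragments at 3068 bp was called in KO alone. The RUNX1 summit at 17.3 kb, with 45 fragments in KO and 30 in WT, lay 48 bp in KO and 6 bp in WT from the start of the neighbouring gene Rpsa.

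Glrx5, the glutaredoxin that hands on iron-sulfur clusters and whose loss impairs heme synthesis, combined strong GATA2 sites with the strongest RUNX1 summit of the 9 genes. The RUNX1 summit lay 71 bp before the start in KO and 76 bp in WT and held 266 fragments in KO (235 to 300) and 227 in WT (198 to 259). No GATA2 peak overlapped it, and the promoter printed above holds neither motif. GATA2 summits held 270 in KO and 266 in WT at 4.86 kb before the start, 264 in KO and 259 in WT at 1.97 kb inside, and 224 in KO and 211 in WT at 6.56 kb. A RUNX1 summit at 7.10 kb held 92 fragments in KO and 58 in WT, a log2 of 0.64 (exact conditional 95% interval 0.15 to 1.14). The deposited fold enrichment there ran the other way, 5.20 in KO and 5.995 in WT, with a local background of 16.9 fragments in KO and 8.84 in WT. At 1.96 kb the order was the other way, with 102 RUNX1 fragments in KO and 122 in WT, where a single WT peak overlapped 2 KO peaks. A RUNX1 peak of 30 fragments, 1434 bp before the start, was called in KO alone.

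Alad, which joins 2 aminolevulinate molecules into porphobilinogen in the cytosol, had most of the shared summits whose interval lay above 0, both of those for GATA2 and 3 of 5 for RUNX1. Over the 9 genes that was 2 of 35 shared GATA2 summits and 5 of 31 shared RUNX1 summits, where 10.1% of all shared GATA2 summits and 15.4% of all shared RUNX1 summits had an interval above 0. Its strongest GATA2 summit, at 3.29 kb, held 230 fragments in KO (201 to 262) and 164 in WT (140 to 191), a log2 of 0.40 (0.11 to 0.70). The GATA2 summit at 1.65 kb held 115 in KO and 80 in WT, a log2 of 0.44 (0.01 to 0.87). These were the only shared GATA2 summits among the 35 of the heme genes whose interval lay above 0. At the start site, RUNX1 held 74 fragments in KO and 30 in WT, a log2 of 1.28 (0.65 to 1.94). The KO and WT summits of this peak pair lay 205 bp apart, at 8 bp in KO and 213 bp in WT, the largest gap of any pair. RUNX1 was also higher 1.17 kb before the start, with 84 in KO and 53 in WT (log2 0.64, 0.13 to 1.16). At 17.7 kb, where 95 in KO and 62 in WT gave a log2 of 0.59 (0.12 to 1.08), the summit lay 120 bp in KO and 98 bp in WT from the start of Hdhd3. The strongest RUNX1 summit of Alad, at 3.30 kb, held 121 in KO and 92 in WT, a log2 of 0.37 whose interval reached 0. The median log2 of the 6 shared summits was 0.27 for GATA2 and 0.48 for RUNX1, with 5 of 6 above 0 for each. Shared summits of all genes within 5 Mb had medians of 0.14 for GATA2 (182 summits) and 0.17 for RUNX1 (85 summits). Peaks called in KO alone were a GATA2 peak of 30 fragments at 2698 bp and a RUNX1 peak of 26 fragments at 2525 bp.

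Uros, which closes the porphyrin ring, had both factors at the second of its 2 RefSeq start sites and RUNX1 alone at the first. At the second start, inside the gene, the GATA2 summit beside the motif held 254 fragments in KO and 258 in WT, and RUNX1 held 99 in KO and 91 in WT. At the first start RUNX1 alone had a summit, of 239 fragments in KO (210 to 271) and 203 in WT (176 to 233), 70 bp inside in KO and 71 bp in WT. This summit also lay 108 bp in KO and 109 bp in WT from the start of Bccip, which runs from the same region. The strongest GATA2 summit, at 11.1 kb, held 275 in KO and 264 in WT, with RUNX1 at 128 in KO and 113 in WT. A GATA2 peak of 26 fragments at 7637 bp was called in KO alone.

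Urod, the decarboxylase of the last cytosolic step before coproporphyrinogen enters mitochondria, was the weakest target of both factors. Its only GATA2 peak, 604 bp inside the gene in KO and 610 bp in WT, held 136 fragments in KO (114 to 161) and 100 in WT (81.4 to 122). The log2 was 0.36 with an interval of −0.02 to 0.75. RUNX1 held 51 there in KO and 39 in WT, and 70 in KO and 60 in WT just before the start. No peak at Urod was called in a single genotype.

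Cpox, the mitochondrial coproporphyrinogen oxidase, had the tallest promoter summit. GATA2 held 280 fragments in KO and 283 in WT there, near the ceiling, so a difference at this site could not be read. RUNX1 at the same promoter held 219 in KO and 197 in WT, 38 bp in KO and 51 bp in WT before the start. The local GATA2 background was 31.3 fragments in KO and 14.7 in WT, and the deposited fold enrichment, 8.69 in KO and 18.1 in WT, differed accordingly. A second upstream site held 210 GATA2 fragments in KO and 176 in WT, 778 bp in KO and 788 bp in WT before the start. RUNX1 beside it held 105 in KO and 71 in WT, a log2 of 0.54 (0.09 to 1.00). The only shared GATA2 summit of the heme genes past 1.5-fold lay 8.77 kb inside Cpox, with 37 in KO and 22 in WT (log2 0.66, with an interval that spanned 0). Cpox also had the most peaks called in KO alone. The GATA2 ones held 40 fragments at 575 bp, 23 at 6015 bp and 19 at 14573 bp, and the RUNX1 ones held 28 at 1467 bp before the start, 23 at 6634 bp and 20 at 11605 bp.

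Ppox, the oxidase that makes protoporphyrin, had a single shared site for each factor, just inside its start. GATA2 held 235 fragments in KO and 210 in WT, 155 bp inside in KO and 150 bp in WT. RUNX1 held 100 in KO, 150 bp inside, and 75 in WT, 31 bp before the start in RefSeq, a log2 of 0.39 whose interval reached below 0. A GATA2 peak of 21 fragments at 771 bp was called in WT alone.

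Fech, the ferrochelatase that inserts iron, was the longest gene, at 32.6 kb, and had the most peaks. Its strand and promoter are not given in the tables used, so positions count from its upper end. GATA2 summits held 281 fragments in KO and 277 in WT at 3.27 kb inside, near the ceiling, and 253 in KO and 233 in WT at 2342 bp outside. RUNX1 coincided with both, with 162 in KO and 128 in WT at the first and 138 in KO and 130 in WT at the second. At the upper end itself GATA2 held 121 in KO and 85 in WT, 94 bp in KO and 101 bp in WT outside, and 76 in KO and 62 in WT at 379 bp inside. A single WT peak overlapped both of these KO peaks, so neither site is among the shared summits and neither has a log2 value. RUNX1 held 81 in KO, 28 bp outside, and 73 in WT, 74 bp outside. The lowest log2 of any shared GATA2 summit, −0.45, belonged to a weak Fech site 3.83 kb outside, with 45 fragments in KO and 58 in WT. GATA2 peaks called in KO alone held 27 fragments at 2033 bp, 13 at 20901 bp and 14 at 27347 bp, and a WT-only GATA2 peak held 21 at 3629 bp. RUNX1 peaks called in KO alone held 25 fragments at 1044 bp outside and 14 at 20905 bp.

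Over the 9 genes together, 35 GATA2 summits were shared by 1 KO and 1 WT peak. Their median log2 KO over WT was 0.03, with a range of −0.45 to 0.66, and 19 of 35 were above 0, where 62.5% of all shared GATA2 summits were. Relative to the median of 0.12 over all 36340 shared GATA2 summits at coding genes, the heme median was −0.09. Of the 35, 1 was at least 1.5-fold higher in KO, where 14.2% of all shared summits were, and 0 were at least 1.5-fold lower, where 5.59% were. The ceiling limits that count: at 14 of the 35 the WT summit was already too tall for a KO value of 1.5-fold to be recorded, as at 5.40% of all shared GATA2 summits. Among summits where the ceiling allowed it, 1 of 21 was at least 1.5-fold higher in KO, against 15.0% of all. The median log2 over those 21 was 0.17, against 0.15 over all shared GATA2 summits where the ceiling allowed it. Those summits were kept by their WT count alone, which by itself raises the ratios kept. The share left out also differed between heme genes and all genes, so these medians are not a like comparison. Whether the ceiling lowered the heme median was not tested. Leaving out just the 4 summits within 5% of their list's ceiling gave a median of 0.08 over 31. The 31 shared RUNX1 summits had a median of 0.21 and a range of −0.19 to 1.28, with 26 above 0, against a median of 0.20 and 73.0% above 0 over all 18647. Relative to that, the heme median was 0.01. Of the 31, 4 were at least 1.5-fold higher in KO, where 14.8% of all were, or 4 of the 28 where the ceiling allowed it, against 15.2% of all such summits. Of the 31, 0 were at least 1.5-fold lower, where 3.66% of all were. Of those 4 RUNX1 summits, 3 were at Alad and 1 at Glrx5. A site bound in fewer cells and a site bound less in each cell cannot be told apart in these bulk data.

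**Figure D3:**
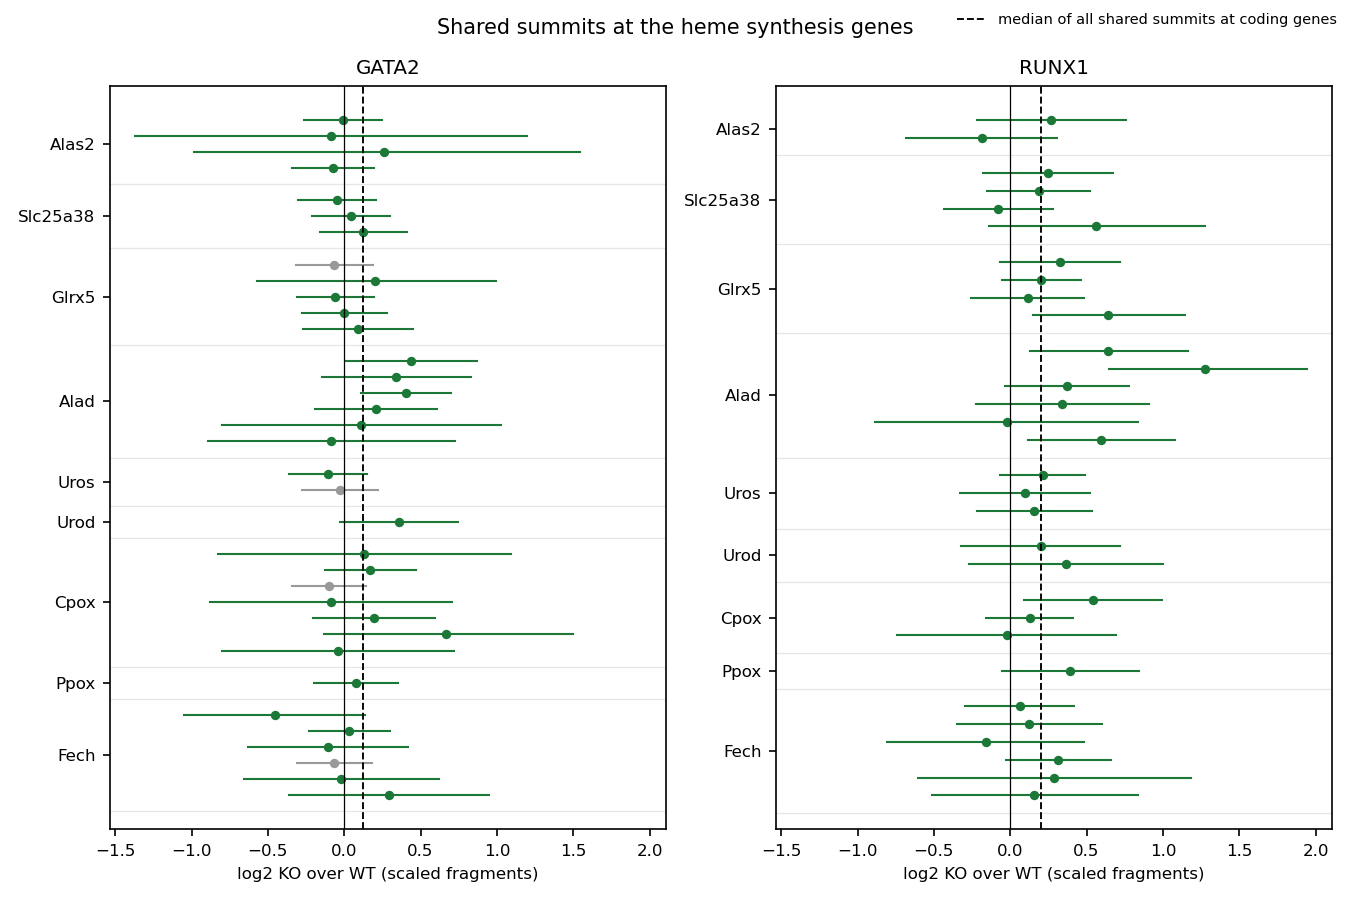
Log2 KO over WT of scaled summit fragments at each shared GATA2 summit (left, 35) and RUNX1 summit (right, 31), grouped by gene and ordered by position, with exact conditional 95% intervals as lines. Grey points are within 5% of the ceiling of their list in KO or WT, the solid line is 0 and the dashed line is the median over all shared summits at coding genes, 0.12 for GATA2 and 0.20 for RUNX1. The Alad points lie to the right of the dashed line at most sites, and most other intervals span 0.

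Pairing KO and WT peaks by overlap itself keeps the paired summits close, and gaps over all coding genes were not measured. Shared GATA2 summits lay a median of 10 bp apart, with 30 of 35 within 50 bp, and shared RUNX1 summits a median of 14 bp apart, with 27 of 31 within 50 bp. Peaks called in a single genotype numbered 12 in KO and 4 in WT for GATA2, with 8 to 40 fragments in KO and 10 to 21 in WT. For RUNX1 they numbered 7 in KO, with 14 to 30 fragments, and 1 in WT, with 13. A peak of the other genotype overlapped 76.5% (62.5% to 87.2%) of the KO and 90.7% (77.9% to 97.4%) of the WT GATA2 peaks, against 70.0% in KO and 83.2% in WT over all coding genes. For RUNX1 the shares were 82.9% in KO and 97.1% in WT, against 69.8% in KO and 88.2% in WT over all coding genes.

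Elongating polymerase covered the heme genes very unevenly, and the order of the genes was similar in KO and WT. Coverage is the share of the gene body under S2P peaks, which counts called peaks and is not a transcript level. Cpox was covered for 97.8% in KO and 91.5% in WT, Glrx5 for 91.8% in KO and 83.5% in WT, and Fech for 89.5% in KO and 91.0% in WT. Slc25a38 was covered for 51.8% in KO and 53.7% in WT. These 4 genes passed 50% in both genotypes, where 17.1% in KO and 16.7% in WT of the 19304 coding genes of at least 2 kb did. Alad followed with 41.6% in KO and 34.8% in WT, Ppox with 27.6% in KO and 37.7% in WT, Uros with 23.7% in KO and 24.9% in WT, and Alas2 with 22.6% in KO and 18.5% in WT. Urod came last, with no S2P peak over the gene in KO and 7.89% in WT. The gene with the lowest GATA2 and RUNX1 summits, Urod, was also the least covered, but the other genes did not all follow such an order. Cpox and Glrx5 had tall summits of both factors and high coverage. Uros also had tall summits, with up to 275 GATA2 and 239 RUNX1 fragments in KO, but low coverage. A relation between summits and coverage was not tested.

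**Figure D4:**
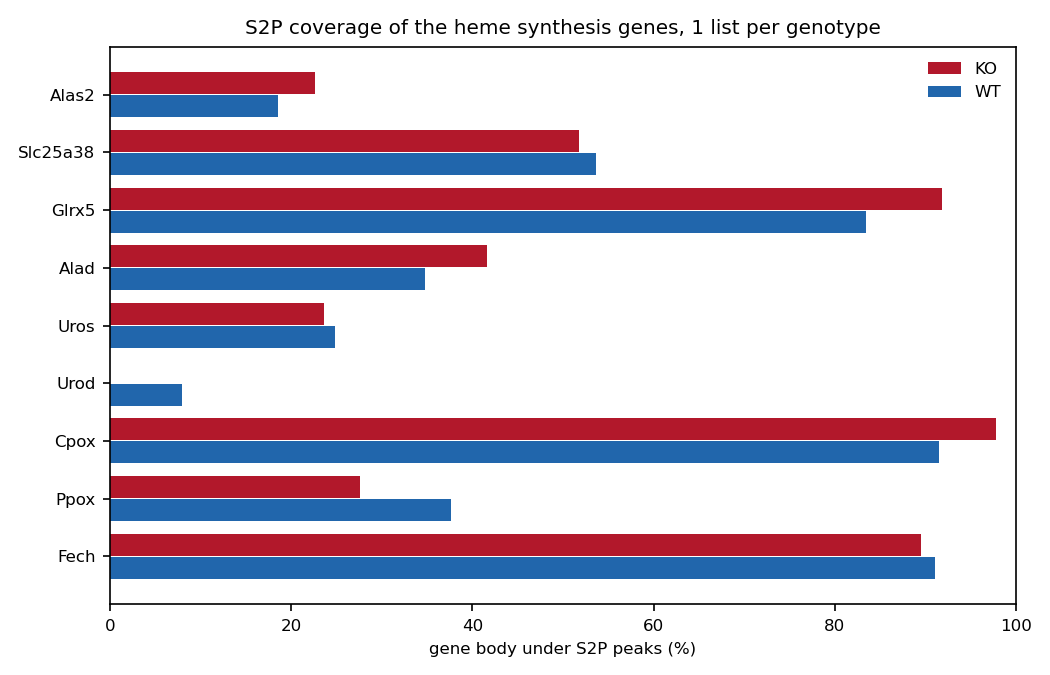
Share of each gene body under S2P peaks in percent, KO bars (red) above WT bars (blue), from 1 list per genotype and without error bars because the replicates are not separate. Cpox, Glrx5 and Fech exceed 80% in both genotypes, and Urod has no KO bar.

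Between the genotypes, 4 of the 9 genes had more coverage in KO and 5 had less, while 61.0% of covered genes had more in KO and 37.2% less. A difference of at least 5 points higher was seen at Glrx5 (8.34 points), Alad (6.83) and Cpox (6.35), 3 of 9, where 19.1% of covered genes reached it. Differences of at least 5 points lower were seen at Ppox (−10.1) and Urod (−7.89), 2 of 9, where 9.56% of covered genes did. None of these 5 genes kept a difference of at least 5 points under every way of counting coverage. Joining gaps of up to 500 bp gave 0.65 points at Cpox and −9.05 at Slc25a38, where the called peaks alone gave −1.88. Including the flanks gave 3.98 points at Glrx5 and −2.51 at Urod. The sign itself changed at Alad and Ppox: Alad was −1.08 points when gaps were joined, and Ppox was 1.28 with the stricter peaks and 4.66 with the flanks included. The median difference over the 9 genes was −1.20 points, against 0.67 over all covered genes, and it became 1.28 with the stricter peaks and 1.44 with the flanks included.

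Within the genes, coverage leaned to the 3′ part at 4 members with partial coverage in both genotypes. How many of all covered genes lean the same way was not counted, so this may not be particular to the heme genes. In the 3′ 50% of Alas2 it was 39.9% in KO and 33.3% in WT, and in the 5′ 50% it was 5.33% in KO and 3.81% in WT. Alad had 63.4% in KO and 55.5% in WT in the 3′ part, and 19.8% in KO and 14.1% in WT in the 5′ part. Uros had 39.6% in KO and 45.7% in WT in the 3′ part, and 7.74% in KO and 4.06% in WT in the 5′ part. Ppox was covered in its 3′ part alone, for 55.2% in KO and 75.3% in WT. Urod, covered in WT alone, had 15.8% in its 3′ part and 0% in its 5′ part. Slc25a38 had 55.6% in KO and 54.1% in WT in the 3′ part. Its 5′ part had 48.0% in KO and 53.2% in WT. Cpox had 96.9% in KO and 94.5% in WT in the 3′ part. Its 5′ part had 98.8% in KO and 88.5% in WT. Glrx5 was covered in full in its 3′ part in KO and WT, and for 83.7% in KO and 67.0% in WT in its 5′ part. Fech, counted from its upper end, had 80.7% in KO and 86.0% in WT in the first 50%. The rest of Fech had 98.2% in KO and 96.1% in WT. Neighbours touch these values. The 5 kb downstream were covered for 100% in KO and 89.4% in WT at Ppox, where B4galt3 lies, for 100% in KO and 100% in WT at Slc25a38, where Rpsa lies, and for 58.4% in KO and 58.6% in WT at Urod, where Zswim5 lies. Downstream of Alas2, whose window overlaps Apex2, coverage was 56.6% in KO and 22.4% in WT, the widest difference of the flanks named here. Cpox, Glrx5 and Fech had no other coding gene in their windows. The lists do not use strand, so signal from a neighbour and from the heme gene cannot be told apart.

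**Figure D5:**
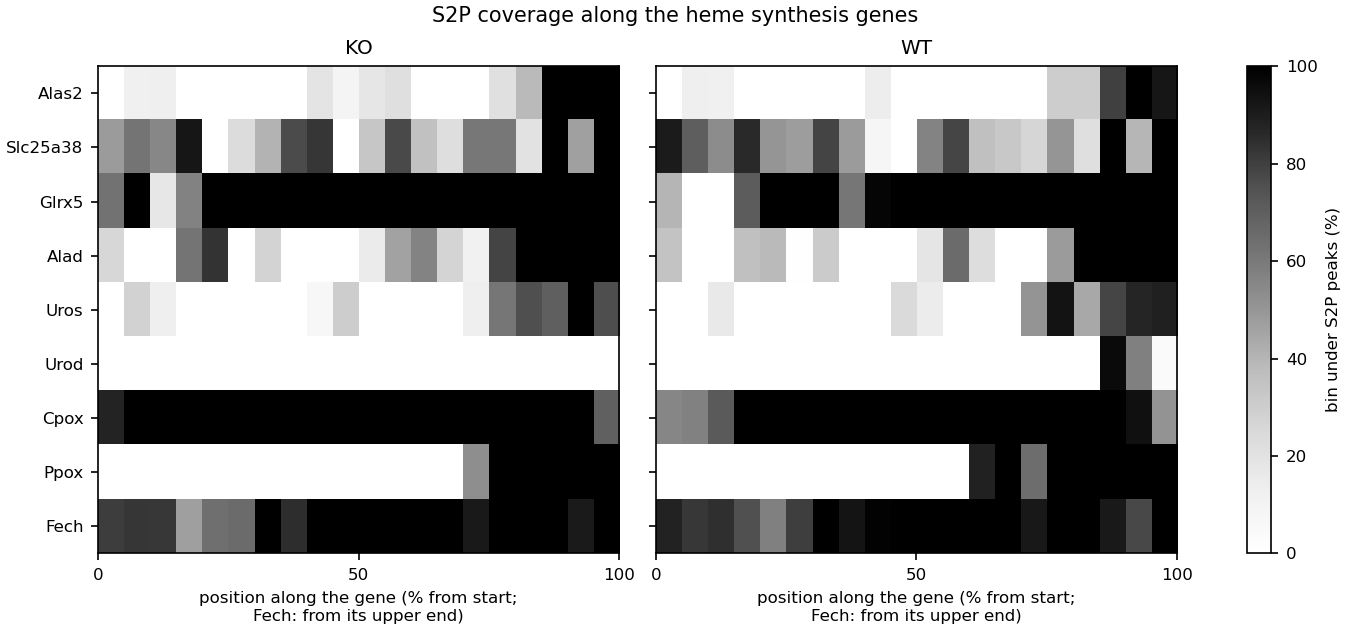
S2P coverage along each gene in 20 bins from the start (left edge) to the end, for Fech from its upper end, KO on the left and WT on the right, with the shade giving the share of the bin under S2P peaks in percent. Alas2, Alad, Uros and Ppox are dark toward the end of the gene, whereas Cpox and Fech are dark throughout.

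The wider pathway was read from 34 genes of heme transport, iron-sulfur assembly, heme breakdown and iron sensing. A GATA2 peak stood at 31 of the 34 in KO and 28 in WT, and a RUNX1 peak at 33 in KO and 32 in WT, beside shares among S2P-covered genes of 87.4% in KO and 82.8% in WT for GATA2 and 90.8% in KO and 86.4% in WT for RUNX1. A GATA2 summit of at least 200 fragments stood at 9 of 34 in KO and 6 in WT, where S2P-covered genes gave 14.8% in KO and 11.8% in WT. A RUNX1 summit of that height stood at 1 in KO and 1 in WT, where S2P-covered genes gave 6.63% in KO and 3.59% in WT. The strongest GATA2 summit in KO was at Hscb, a co-chaperone of iron-sulfur assembly, with 278 fragments in KO and 266 in WT. Hscb lies on chromosome 5, where shared summits had a median log2 of 0.46 for GATA2 and 0.56 for RUNX1, above the other 19 chromosomes, and none of the 9 heme genes is on it. The strongest RUNX1 summit in KO was at Isca2, an iron-sulfur assembly factor, with 254 in KO and 251 in WT. Of 33 genes of the list with S2P coverage and at least 2 kb, 20 had more coverage in KO and 13 less, with a median difference of 1.31 points, close to the 61.0% and 37.2% of all covered genes. The extremes were Abcb10, a mitochondrial inner membrane transporter needed for erythroid heme synthesis, with 51.7% in KO and 40.1% in WT, and Fam210b, a mitochondrial protein of erythroid iron handling, with 44.3% in KO and 60.4% in WT. At least 5 points more was seen at 7 of the 33 and at least 5 points less at 3, where 19.1% and 9.56% of all covered genes reached these differences.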

How the data were processed

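Chromatin immunoprecipitation sequencing of G1ER cells was analysed from 6 peak lists of the 14 samples, grouped by target and genotype from the labels; the inputs had no list of their own. Bowtie2 2.2.1, MACS2 2.1.0 and the builds GRCm38 and mm10 are named, per the submitters' processing notes. The authors deposited narrowPeak lists, in which the peak caller had written for every peak a score, a fold enrichment (the ratio of summit pileup over local background), −log10 p, −log10 q and the offset of the summit in bp. Read depth per library is not given in the sources used here.

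The deposited fold enrichment and −log10 p were solved together for the whole number of fragments and the background at each summit. In the 4 factor lists 100% of summits came out whole, with the recomputed −log10 p within 0.005, and 3.00% to 4.13% did at a wrong scale of 0.93. The step was tested on simulated data. A peak belonged to a gene if the summit was inside it or at most 5 kb away, and KO and WT peaks were paired 1 to 1 by an overlap of at least 1 bp. Intervals are exact Poisson, exact conditional and exact Clopper-Pearson at 95%. Those of fragments and of log2 values cover counting error only. They treat fragments as independent, though amplified fragments carry no molecular identifiers. Those of a share treat peaks as independent, though several lie in the same gene and each list is 1 library. The described peaks were the strongest GATA2 and RUNX1 peak of each gene, every peak called in 1 genotype alone and every peak within 1 kb of a gene's ends, with further sites given where a result turns on them. The members, gene lists and rules were chosen with earlier results of these data known. Python 3.11.15, numpy 2.4.6, pandas 2.3.3 and scipy 1.17.1 were used. Alternatives changed the q limit, window, peak assignment, list size, pairing, scaling and the counting of S2P coverage. The S2P lists were used for coverage alone.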

Additional observations from a re-analysis of the deposited data

How the results depend on the processing

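Of 34 alternative values, 28 stayed within 1.5 times the count or within the 95% order-statistic interval of the median, and 6 did not. Of the 14 alternative medians, 4 had the other sign, 2 for GATA2 and 2 for S2P coverage. Both of those for S2P, and the GATA2 one with −log10 q of at least 5, were still among the 28. The intervals come from the spread of summits or genes, not of replicates. For S2P the interval ran from −7.89 to 6.83 points, so staying within it says little. With both lists of a factor kept to the same number of top peaks by −log10 q, 50% of the shorter list, the heme genes had 32 GATA2 peaks in KO and 31 in WT, and 26 RUNX1 peaks in KO and 24 in WT. With the gene body alone, RUNX1 peaks numbered 27 in KO and 22 in WT. The ratio of KO to WT peaks stayed above 1, from 1.03 to 1.32 for GATA2 and from 1.08 to 1.23 for RUNX1. Centred on all shared summits, the median log2 was −0.089 for GATA2 and 0.0073 for RUNX1, and with −log10 q of at least 5 the GATA2 median was −0.01. The S2P median changed sign with the stricter peaks and with the flanks, as given above.

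No paired analysis was possible because each factor list is 1 library and each S2P list is named for both replicates. For the same reason leaving out a replicate was not possible. Summits near the ceiling understate differences, and peaks called in 1 genotype alone held at most 40 fragments.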
